A study of Mus musculus with 40 samples.

Results

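The cardiac transcription factors examined here are 10 genes that code for the DNA-binding proteins of the heart's core developmental programme: *Gata4*, *Gata6*, *Mef2a*, *Mef2c*, *Mef2d*, *Nkx2-5*, *Tbx5*, *Tbx20*, *Tbx2* and *Hand2*. They were found by gene name in the expression table of male hearts, which lists 17646 genes, and in that of female hearts, which lists 17223. All 10 were in both tables, and all 10 passed the filter on low values in each sex. Their weakest value in any library rested on 136 reads and their strongest on 10172 reads.

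In the developing heart, GATA, MEF2, NK homeobox, T-box and HAND proteins bind the enhancers of cardiac genes together and raise one another's activity. GATA4, TBX5 and MEF2C are known for turning fibroblasts towards a cardiomyocyte-like state when they are supplied together. In the adult ventricle most of these factors remain expressed in cardiomyocytes, where they maintain the genes for contraction, calcium handling and conduction. TBX2 is known as a repressor, which in the embryo keeps chamber genes off in the atrioventricular canal. *Gata6*, *Mef2a*, *Mef2c*, *Mef2d*, *Tbx20*, *Tbx2* and *Hand2* are also expressed in other cells of the heart, so a value from whole tissue is a sum over cell types.

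RNA was sequenced from the hearts of CM-Il11-Tg mice and controls, 1 library per mouse. CM-Il11-Tg mice are heterozygous for α-MHC-MerCreMer (MCM), a Cre recombinase that tamoxifen activates and that the α-myosin heavy chain promoter drives in cardiomyocytes, and for *Rosa26-Il11*, from which Cre releases mouse *Il11*. Each sex has 5 groups: controls, induced CM-Il11-Tg hearts taken at 1, 3 or 6 weeks, and uninduced CM-Il11-Tg hearts, whose mice had no tamoxifen. By the study's methods, controls were littermates of matched age with 1 copy of MCM and no *Rosa26-Il11*, and they received tamoxifen. Every mouse sequenced therefore carried MCM, and of these the uninduced mice alone had no tamoxifen. The column labels call the controls WT. The parents were C57BL6/J males with MCM and C57BL/6N females with *Rosa26-Il11*, tamoxifen was injected from the age of 8 weeks, and the sources used here do not give the age at collection of the control or the uninduced hearts. The labels put both at baseline and 1 control group per sex serves all 3 weeks, so a week's difference from control may include one of age or of time since tamoxifen, and these cannot be told apart here. The labels name heart as the tissue, and the study's text names the left ventricle. Male controls and male 6-week hearts had 3 libraries each and the other groups 4, because 2 male libraries have labels that contradict each other over control and 6 weeks and entered no group. The one titled control and described as 6 weeks had 511 CPM of *Il11*, and the one titled 6 weeks and described as control had 0.597 CPM, so that *Il11* went against the titles of both. *Il11* itself was at most 0.147 CPM (read counts scaled to library size by the authors) in male controls and 0.166 in female controls, from 15.5 to 49.1 in uninduced hearts, and from 328 to 819 in induced hearts of both sexes.

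Several libraries stood apart from the rest. Male 6-week replicate 4 lay far from all other male libraries on the second principal component (56.8, others between -22.7 and 9.63). In females 5 libraries (uninduced 4, 1-week 2, and 6-week 2, 3 and 4) had summed nuclear RNAs (*Malat1*, *Neat1*, *Meg3*, *Kcnq1ot1* and *Snhg14*) of 342 to 561 CPM, against 1183 to 2746 in the other 15. The counts of members and of list genes that passed are also given without these libraries. None of the 5 female ones is a control or a 3-week heart. Leaving them out therefore changes no heart compared at 3 weeks, only the set of tested genes and the spread estimated from all groups. Cardiomyocyte markers were high in every library (summed from 34056 to 66855 CPM in the 38 grouped ones, and 31828 and 61217 CPM in the 2 with conflicting labels). Of the 6 atrial markers, *Sln* and *Bmp10* were not listed in either table and *Myl7* was not listed in males. The summed level of the listed ones was highest in female 6-week replicate 2 (1630 CPM) and in a male 1-week library (877 CPM). It was 17.04 to 80.4 in controls of both sexes. The sum includes *Nppa*, which the study's text names as a cardiomyocyte stress marker raised by 1 week, so it does not measure atrial tissue alone. Each sex was scaled separately, so all tests were made within a sex, with limma on log2(CPM + 0.5) over all genes. A gene is said to have passed the test where its p, adjusted over all tested genes, was under 0.05.

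As deposited, most of the 10 factors were lower in induced hearts than in controls, by modest amounts. The direction against 0 rests on how the libraries were scaled. With reads divided by the library's total alone, 5, 4 and 5 of the 10 were below control at 1, 3 and 6 weeks in males and 1, 3 and 1 in females. On that scale 9, 8 and 9 in males and 6, 8 and 7 in females were below the median of all genes. Median-of-ratios scaling left 9, 8 and 9 in males and 7, 9 and 8 in females below control, as on the deposited scale. Those that passed the test are given by sex and week, on the deposited scale, since the sexes were not tested against each other. In male hearts at 1 week 5 of the 10 fell (*Gata4*, *Mef2a*, *Mef2d*, *Tbx5* and *Tbx2*) and none rose. Of all 16931 tested genes 33.5% passed in that comparison and 14.6% passed and were lower. At 3 weeks 2 fell in males (*Gata4* and *Tbx2*), where 21.3% of all genes passed and 8.1% were lower, and at 6 weeks 1 fell (*Tbx2*), where 27.1% passed and 10.9% were lower. In female hearts 2 fell (*Tbx2* and *Mef2d*) and 1 rose (*Tbx20*) at 1 week, where 28.4% of 16956 genes passed, 13.1% lower and 15.3% higher. The 2 female genes that fell at 3 weeks and at 6 weeks were again *Tbx2* and *Mef2d*, and 31.3% and 42.7% of all genes passed in those comparisons, 14.5% and 21% of them all being lower. Read against these shares, the count of members that fell stood above the background in males at 1 week. It was close to the background in males at 3 weeks, with 2 genes, and at 6 weeks, and in females at each week. The members were chosen with earlier results of these data known, so a count above the background is no independent support. With 1 library left out, the members that passed in males ran from 3 to 6 at 1 week and from 0 to 2 at 3 weeks. The shares of all genes that passed in those fits are not given here. With reads divided by the library's total alone, no male member fell in either of these weeks. With only the 2 groups compared in the fit, 5 members passed in males at 3 weeks and 6 and 4 in females at 3 and 6 weeks, where 24.2%, 39.4% and 41% of all genes did. The weeks share their control libraries, so the 3 comparisons of a sex are not independent of each other.

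As a group, 9, 8 and 9 of the 10 members had a log2 fold change below 0 in the 3 weeks of the males, and 7, 9 and 8 of the females. The median over the members was -0.36, -0.21 and -0.19 in males, beside 0.02, 0.00 and -0.01 over all tested genes. In females it was -0.17, -0.27 and -0.16, beside -0.02 in each week over all tested genes. With reads divided by the library total alone the medians over the members were 0.00, 0.05 and 0.00 in males and 0.17, 0.08 and 0.23 in females, beside 0.33, 0.23 and 0.16 and 0.28, 0.30 and 0.33 over all tested genes. The members' values did not overlap between induced and control hearts for 6, 5 and 2 genes in males, where 40.9%, 33.1% and 37.7% of all genes did not overlap, and for 1, 5 and 2 genes in females, against 32.8%, 37.5% and 37.5% of all genes.

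**Figure D1:**
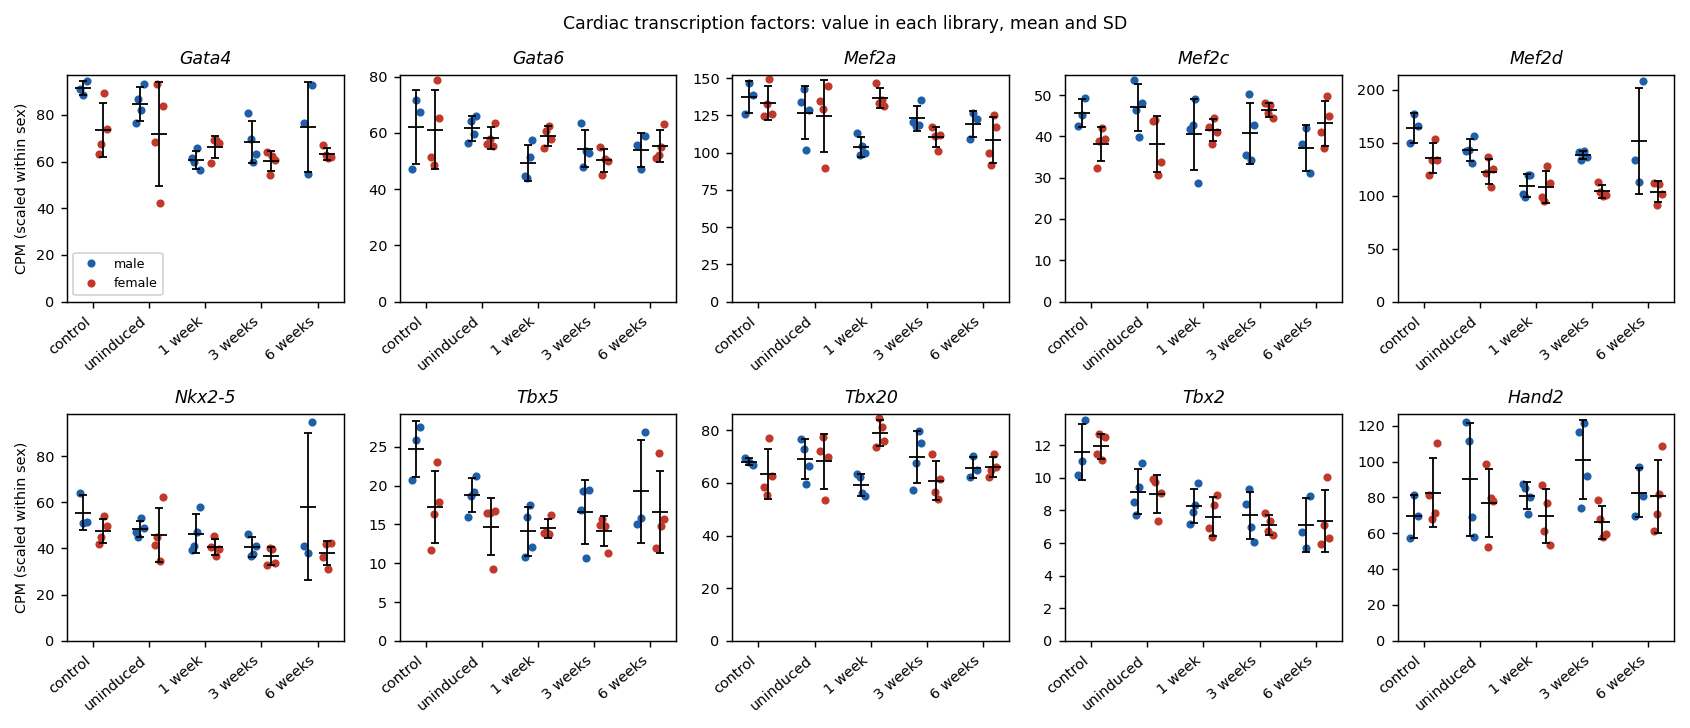
Value of each of the 10 factors in CPM (y axis, from 0) in every library by group (x axis), male in blue and female in red, with the mean and SD of the group in black. *Tbx2* lies lower in the induced hearts of both sexes (5.68 to 10.1 CPM) than in controls (10.2 to 13.5 CPM), and *Nkx2-5* and *Mef2d* have 1 high male 6-week library (94.9 and 209 CPM).

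*Tbx2* (ENSMUSG00000000093, chromosome 11, 85723377 to 85734115 on the plus strand of GRCm39), which codes for the T-box repressor, passed the test in all 3 weeks of both sexes. In male controls it was at 10.2, 11.02 and 13.5 CPM. The male values were 7.16, 7.93, 8.35 and 9.66 CPM at 1 week, 8.41, 9.35, 7 and 6.04 at 3 weeks, and 6.70, 5.68 and 8.91 at 6 weeks. No male induced heart reached the lowest male control. In females the controls were at 11.5, 12.7, 11.1 and 12.5 CPM. Female values were 6.90, 6.36, 8.32 and 8.93 CPM at 1 week, 7.85, 6.76, 7.33 and 6.52 at 3 weeks, and 5.95, 7.09, 10.1 and 6.29 at 6 weeks. The groups did not overlap in females either, and 1 female 6-week library, replicate 3, lay near the controls.

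The log2 fold change of *Tbx2* against control in males was -0.46 at 1 week (standard error 0.17, adjusted p = 0.0465), -0.57 at 3 weeks (0.17, adjusted p = 0.0230) and -0.68 at 6 weeks (0.18, adjusted p = 0.00958, all from limma), the last a level 37.6% lower. In females it was -0.62 (standard error 0.14, adjusted p = 0.00227), -0.71 (0.14, adjusted p = 0.000658) and -0.69 (0.14, adjusted p = 0.000621, limma) in the same order, with a level 38.1% lower at 6 weeks. The female result passed in each of the fits that left out 1 library. Without the 5 female libraries low in nuclear RNAs it was -0.55, -0.71 and -0.95 (adjusted p = 0.0031, 0.000148 and 0.0014, limma), the last resting on 1 remaining 6-week library. In males it failed to pass at 1 week without control 3 or 4 or 1-week replicate 1, 2 or 3, and at 3 weeks without control 3 or 4 or 3-week replicate 3 or 4. Leaving out control 4 ended the call in all 3 male weeks and gave -0.35, -0.45 and -0.57 with adjusted p = 0.198, 0.118 and 0.0528 (limma). Uninduced hearts were between the other groups: 8.52, 7.71, 9.46 and 10.9 CPM in males and 9.94, 9.73, 7.36 and 9.10 in females. Neither sex passed against control (log2 fold change -0.32, adjusted p = 0.524 in males and -0.39, adjusted p = 0.168 in females, limma), although no female uninduced library reached the lowest female control, as was so of 8.24% of all genes in either direction.

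The 250 bases before the start of the canonical *Tbx2* transcript in GENCODE M39 (chr11:85723127-85723376, plus strand, GRCm39) are shown because *Tbx2* fell at each week after induction in both sexes. Those of *Mef2d* (chr3:88049382-88049631, plus strand), the other gene that fell in females at each week, and of *Tbx20* (chr9:24685600-24685849, minus strand), the member that rose, are shown beside it. Capitals mark a match, on either strand, to 1 of the motifs searched: AGATAA for GATA proteins, AAGTG for NK homeobox proteins, AGGTGT for T-box proteins, TTCNNNGAA for STAT proteins, which act below the IL11 receptor, and the MEF2 site by name.
Tbx2: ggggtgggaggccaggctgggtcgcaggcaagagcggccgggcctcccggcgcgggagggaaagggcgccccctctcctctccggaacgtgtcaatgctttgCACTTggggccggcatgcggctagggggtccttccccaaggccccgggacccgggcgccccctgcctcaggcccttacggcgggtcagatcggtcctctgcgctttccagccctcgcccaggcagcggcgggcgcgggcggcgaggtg
Mef2d: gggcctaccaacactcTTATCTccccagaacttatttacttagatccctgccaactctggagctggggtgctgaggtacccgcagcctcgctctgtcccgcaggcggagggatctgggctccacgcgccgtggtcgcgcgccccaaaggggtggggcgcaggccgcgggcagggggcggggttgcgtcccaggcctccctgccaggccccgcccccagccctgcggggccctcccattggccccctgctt
Tbx20: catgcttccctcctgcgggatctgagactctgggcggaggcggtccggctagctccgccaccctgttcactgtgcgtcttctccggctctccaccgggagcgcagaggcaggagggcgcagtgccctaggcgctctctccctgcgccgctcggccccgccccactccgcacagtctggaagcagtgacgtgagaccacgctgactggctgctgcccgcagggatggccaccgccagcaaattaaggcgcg
Each window is rich in G and C (74.8%, 70.4% and 68.8%). The *Tbx2* window holds 1 NK homeobox match on the minus strand, the *Mef2d* window 1 GATA match on the minus strand, and the *Tbx20* window none. In the same window of all 10 members, the GATA motif was found in 3 (*Gata4*, *Mef2d* and *Hand2*), where 9.60% of 21770 promoters have it, and the NK homeobox motif in 4 (*Mef2c*, *Tbx5*, *Tbx2* and *Hand2*), where 40.6% have it. The STAT, T-box and MEF2 motifs were in 0 of the 10 windows, and 7.70%, 12.3% and 2.79% of all promoters have them. Such matches describe the letters of these windows and do not show binding.

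The GATA factors are zinc finger proteins that bind next to T-box and NK homeobox factors on cardiac enhancers. *Gata4* (ENSMUSG00000021944, chromosome 14, 63436362 to 63509141, minus strand) was at 90.9, 88.7 and 94.7 CPM in male controls, and at 61.6, 59.9, 65.6 and 56.3 CPM in males at 1 week. The 3-week male values were 80.6, 69.8, 60.01 and 63.05 CPM, and those at 6 weeks were 76.7, 54.7 and 92.95. All 1-week and 3-week male libraries were below every male control, while the 6-week libraries ran from 54.7, the lowest male value, to within the control range. The log2 fold change was -0.58 at 1 week (standard error 0.14, adjusted p = 0.00337), -0.43 at 3 weeks (0.14, adjusted p = 0.0355) and -0.32 at 6 weeks (0.15, adjusted p = 0.121, limma). The fall at 1 week passed in every fit that left out 1 library, and the fall at 3 weeks did not pass without control replicate 1, 3 or 4 or without 3-week replicate 2, 3 or 4 (adjusted p from 0.0579 to 0.102, limma).

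In female hearts *Gata4* passed in no week. Female controls were at 63.3, 67.5, 89.5 and 73.8 CPM, and the 6-week hearts at 66.9, 62.6, 61.6 and 62.1. Its log2 fold change was -0.14, -0.28 and -0.20 over the weeks (adjusted p = 0.576, 0.22 and 0.336, limma), with a 95% interval at 6 weeks from -0.55 to 0.14. *Gata6* (ENSMUSG00000005836, chromosome 18, plus strand), its close relative, passed in no comparison of either sex. Its control values ran from 47.3 to 71.7 CPM in males and from 48.6 to 79.0 in females, and those of induced hearts from 43.9 to 63.7 and from 45.0 to 63.3. The log2 fold change of *Gata6* lay between -0.31 (males at 1 week, adjusted p = 0.0919, limma) and -0.03 (females at 1 week), and 3 fits that left out 1 library passed: males at 1 week without control 1 (-0.50, adjusted p = 0.0106) or 1-week replicate 4 (-0.39, adjusted p = 0.0468), and females at 3 weeks without control 2 (-0.36, adjusted p = 0.0304, limma). The antisense RNA *Gata6os* overlaps *Gata6*, and the strand setting used for counting is not given in the sources used here, so reads of the pair may not be fully separate.

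The MEF2 proteins are MADS-box factors that class IIa histone deacetylases repress and calcium signals release. *Mef2d* (ENSMUSG00000001419, chromosome 3, 88049185 to 88079398, plus strand) was at 150, 177 and 166 CPM in male controls, and at 101, 98.6, 119 and 119 in males at 1 week. At 3 weeks the males were at 141, 134, 142 and 137 CPM, and at 6 weeks 134, 113 and 209 CPM. Male libraries at 1 and 3 weeks were all below the controls, whereas 6-week replicate 4 was above all of them. The male log2 fold change was -0.58 (standard error 0.15, adjusted p = 0.00518), -0.24 (0.15, adjusted p = 0.28) and -0.16 (0.16, adjusted p = 0.499, limma) at 1, 3 and 6 weeks. In female controls *Mef2d* was at 119, 134, 154 and 134 CPM. The 1-week female hearts were at 98.7, 94.9, 128 and 112 CPM, the 3-week hearts at 113, 103, 99.9 and 101, and the 6-week hearts at 112, 90.9, 111 and 101. The 3-week and 6-week libraries were all below the female controls, and the 1-week libraries overlapped them. The female log2 fold change was -0.32, -0.37 and -0.38 (standard error 0.10 each, adjusted p = 0.0252, 0.00988 and 0.00665, limma). The female falls at 3 and 6 weeks passed in every fit that left out 1 library, and the fall at 1 week did not pass without control 3 or 1-week replicate 1 or 2 (adjusted p from 0.0765 to 0.096, limma). Without the 5 libraries low in nuclear RNAs it was -0.26 at 1 week (adjusted p = 0.0795), -0.37 at 3 weeks (adjusted p = 0.0076) and -0.26 at 6 weeks (adjusted p = 0.261, limma, with 1 library at 6 weeks).

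*Mef2a* (ENSMUSG00000030557, chromosome 7, 66880911 to 67022606, minus strand) passed the test in males at 1 week and in no other comparison. Male controls were at 126, 147 and 139 CPM and the 1-week hearts at 113, 98.4, 104 and 99.96, with no overlap. The log2 fold change was -0.40 (standard error 0.11, adjusted p = 0.00987, limma), and without control replicate 3 it was -0.35 (adjusted p = 0.0592). In females *Mef2a* was at 125, 133, 149 and 126 CPM in controls, at 146, 133, 136 and 131 at 1 week, and at 99.5, 91.7, 125 and 117 at 6 weeks. Its female log2 fold change was 0.04 at 1 week, -0.27 at 3 weeks (adjusted p = 0.101) and -0.30 at 6 weeks (adjusted p = 0.0521, limma), and the last passed without 6-week replicate 3 (adjusted p = 0.0265) or 4 (adjusted p = 0.048). *Mef2c* (ENSMUSG00000005583, chromosome 13, 83652064 to 83815555, plus strand), which endothelial cells also express, passed in no comparison. It was at 32.3, 38.9, 41.9 and 39.5 CPM in female controls and at 48.1, 45.8, 47.7 and 44.3 in females at 3 weeks. All 4 were above the controls (log2 fold change 0.29, adjusted p = 0.0625, limma). The adjusted p was 0.0464 (limma) without the libraries low in nuclear RNAs, none of which is a control or 3-week heart. The hearts compared and the fold change were then the same, and the spread estimated from all groups was not. In males its log2 fold change was -0.19, -0.18 and -0.30 (adjusted p = 0.393, 0.508 and 0.217, limma).

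*Nkx2-5* (ENSMUSG00000015579, chromosome 17, 27057638 to 27063983, minus strand) codes for the NK homeobox factor of the cardiac lineage. It was at 64.2, 50.9 and 51.65 CPM in male controls, at 46.4, 36.8, 37.6 and 41.1 in males at 3 weeks, and at 41.2, 38.2 and 94.9 at 6 weeks. The 3-week hearts were all below the male controls, and 6-week replicate 4 was far above them. No male comparison passed (log2 fold change -0.27, -0.45 and -0.06, adjusted p = 0.366, 0.16 and 0.882, limma). Female controls were at 41.9, 45.1, 54.0 and 49.6 CPM, 3-week hearts at 33.04, 40.1, 39.7 and 33.7, and 6-week hearts at 36.5, 41.9, 31.1 and 42.3. The female log2 fold change was -0.23, -0.37 and -0.33 (adjusted p = 0.254, 0.0506 and 0.0669, limma), and at 3 weeks the groups did not overlap. That comparison passed without control 1 (adjusted p = 0.0416) and without 3-week replicate 2 (adjusted p = 0.0496, limma). It also passed without the libraries low in nuclear RNAs (adjusted p = 0.0089, limma), none of which is a control or 3-week heart. The hearts compared and the fold change were then the same, and the spread estimated from all groups was not.

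Of the T-box activators, *Tbx5* (ENSMUSG00000018263, chromosome 5, 119970733 to 120023284, plus strand), which is needed for atrial and conduction genes, had the largest fitted fall of the 10 among the comparisons with control, as fitted on all libraries. In male controls it was at 20.7, 25.9 and 27.5 CPM and at 1 week at 10.8, 16.0, 17.5 and 12.1. Male values were 16.9, 19.4, 10.7 and 19.4 CPM at 3 weeks and 15.03, 15.8 and 26.9 at 6 weeks. Every male library at 1 and 3 weeks was below every control, and at 6 weeks replicate 4 was within the control range. Against control it was at -0.80 on the log2 scale at 1 week (standard error 0.22, adjusted p = 0.00791), -0.59 at 3 weeks (0.22, adjusted p = 0.0616) and -0.39 at 6 weeks (0.23, adjusted p = 0.225, limma), and at 3 weeks it passed without replicate 4 (-0.67, adjusted p = 0.0493). The uninduced male hearts, at 16.0, 18.6, 19.2 and 21.3 CPM, had a log2 fold change of -0.38 (adjusted p = 0.56, limma) and overlapped with the controls. In females *Tbx5* varied widely within the controls (11.7, 16.3, 23.1 and 17.9 CPM) and passed in no week (log2 fold change -0.21, -0.24 and -0.06). Its highest female value, 24.2 CPM, was in 6-week replicate 2, the library with the highest atrial marker sum, which includes *Nppa*. The part of atrial tissue in this library was not tested.

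*Tbx20* (ENSMUSG00000031965, chromosome 9, 24629434 to 24685599, minus strand), which adult cardiomyocytes need for normal contraction, rose in females at 1 week. Controls were at 58.3, 55.4, 77.1 and 62.6 CPM and 1-week hearts at 73.7, 84.7, 81.2 and 75.9, so that 1 control lay among the induced hearts. The rise was 0.32 on the log2 scale (standard error 0.12, adjusted p = 0.0426, limma), and it passed in 2 of the 8 fits that left out 1 library, namely without control 3 or 1-week replicate 1. Without the libraries low in nuclear RNAs it was 0.29 (adjusted p = 0.125, limma). Female hearts at 3 and 6 weeks were at -0.05 and 0.07 on the log2 scale against control. In males *Tbx20* was at 69.3, 68.01 and 66.7 CPM in controls and at 63.5, 62.1, 56.3 and 54.8 at 1 week, all lower, with a log2 fold change of -0.20 that did not pass (adjusted p = 0.188, limma). The difference between the sexes was not tested.

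*Hand2* (ENSMUSG00000038193, chromosome 8, 57774011 to 57777677, plus strand) codes for a basic helix-loop-helix factor of the right ventricle, the epicardium and fibroblasts. It was the only member with a positive log2 fold change in males at every week (0.23, 0.52 and 0.25, adjusted p = 0.451, 0.0987 and 0.459, limma), and it passed in none, apart from 3 weeks with replicate 2 left out (0.66, adjusted p = 0.047). Male controls were at 57.6, 81.2 and 69.6 CPM, 3-week hearts at 117, 74.2, 121 and 91.8, and uninduced hearts at 122, 111, 69.1 and 57.9. The uninduced males therefore spanned nearly the whole male range. Female hearts were at -0.24, -0.31 and -0.04 on the log2 scale (adjusted p = 0.393, 0.267 and 0.88, limma). The spread of *Hand2* within groups was the widest of the members in females after *Tbx5* (median coefficient of variation 23.5% and 24.99%). The antisense RNA *Hand2os1* overlaps it, and was at -0.88 in females at 6 weeks (adjusted p = 0.0278, limma), where 3 of 4 libraries were low in nuclear RNAs. Over the 2 antisense RNAs *Gata6os* and *Hand2os1* the female median at 6 weeks was -0.61 on all libraries. Without the 5 libraries low in nuclear RNAs that median was 0.05, with 1 library left at 6 weeks. The cause of this change was not tested.

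**Figure D2:**
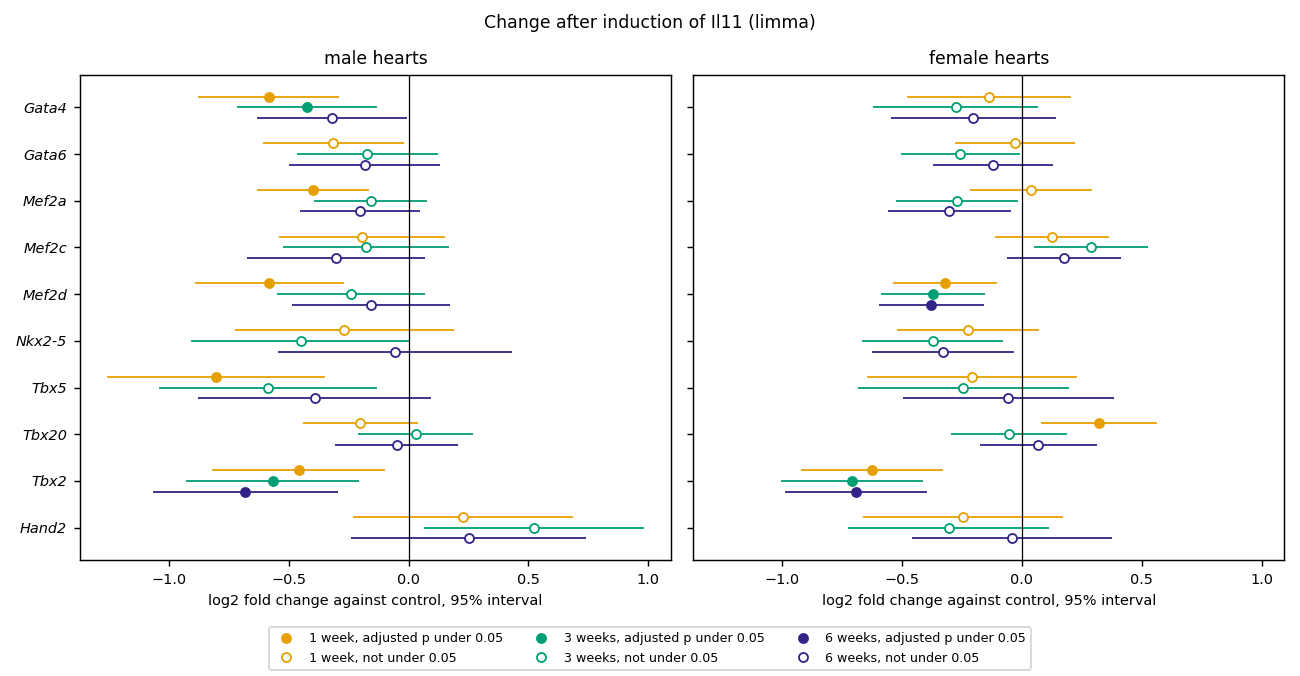
Log2 fold change against control (x axis) of each factor (y axis) at 1, 3 and 6 weeks in males and females, with the 95% interval from limma and filled points where the adjusted p was under 0.05. *Tbx2* has filled points in all 6 comparisons, from -0.46 to -0.71, and *Tbx20* in females at 1 week is the one filled point above 0.

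At 6 weeks the male result turned on 1 library. With male 6-week replicate 4 left out, 5 members fell in place of 1, where 26.2% of all genes passed: *Tbx2* (log2 fold change -0.85, adjusted p = 0.003), *Tbx5* (-0.66, adjusted p = 0.0397), *Gata4* (-0.49, adjusted p = 0.0133), *Nkx2-5* (-0.47, adjusted p = 0.026) and *Mef2d* (-0.41, adjusted p = 0.0126, all limma). That library had 819 CPM of *Il11*, the highest of all, and the lowest cardiomyocyte marker sum of the grouped male libraries (35581 CPM), and its summed nuclear RNAs (1078 CPM) were below those of the other two 6-week males (2478 and 2537 CPM). Whether any of these accounts for its values was not tested.

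**Figure D3:**
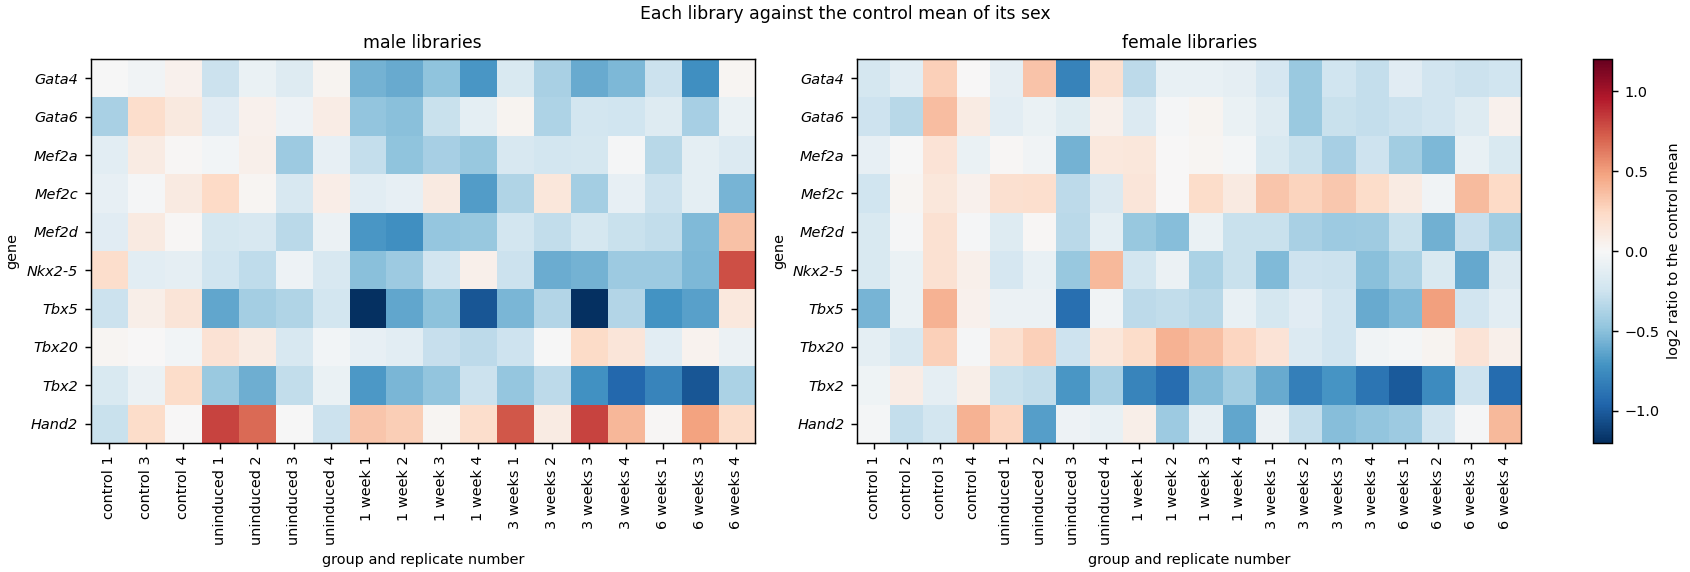
Log2 ratio of each library to the mean of the controls of its sex (colour, blue lower and red higher) for the 10 factors (y axis) in all 38 libraries (x axis). The row of *Tbx2* is blue in every induced library of both sexes, and male 6-week replicate 4 is red for *Nkx2-5* and *Mef2d*, unlike the other 6-week males.

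Between the weeks no member passed in either sex. Across all genes 0.0177% passed between 3 weeks and 1 week in males, 0.165% between 6 weeks and 1 week and 0% between 6 and 3 weeks, and 0.218%, 1.03% and 0% in females. At an unadjusted p under 0.05 there were 3, 1 and 0 members in males and 2, 2 and 0 in females, by limma. The shares of all genes above are at an adjusted p under 0.05, so they are no background for these unadjusted counts. In males *Mef2d* was higher at 6 weeks than at 1 week by 0.42 (unadjusted p = 0.00967, adjusted p = 0.216, limma), and by 0.17 without 6-week replicate 4 (adjusted p = 0.763, limma). In females *Tbx20* was lower at 3 weeks than at 1 week by a log2 fold change of -0.38 (unadjusted p = 0.00403, adjusted p = 0.293, limma).

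The uninduced hearts, which express a low level of *Il11* without tamoxifen, had no member past the test against control, where 0.597% of all genes passed in males and 2.87% in females. At an unadjusted p under 0.05 there were 0 members in males and 1 in females, *Tbx2*. Set against the uninduced hearts, no member passed at 6 weeks either (0 and 2 members at an unadjusted p under 0.05), while 20.4% and 22.8% of all genes did. Here too the shares of all genes are at an adjusted p, and none is given for the unadjusted counts. With female uninduced replicate 3 left out, 3 members fell at 6 weeks against uninduced: *Gata4* (log2 fold change -0.36, adjusted p = 0.024), *Mef2a* (-0.34, adjusted p = 0.0161) and *Mef2d* (-0.30, adjusted p = 0.0443, limma). With every library 22.8% of all genes passed in this comparison, and the share without that replicate is not given here. Female uninduced replicate 3 had the highest *Il11* of the uninduced hearts (49.1 CPM), and whether this bears on the change was not tested. *Tbx2* fell against uninduced in females without 6-week replicate 3 (-0.45, adjusted p = 0.0159, limma).

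The level of the factors against one another is given per kilobase of merged exons, in CPM. In male controls the order was *Nkx2-5* (32.3 ± 4.35, SD, n = 3), *Hand2* (29.3 ± 4.98), *Mef2d* (21.4 ± 1.80), *Gata4* (16.1 ± 0.53), *Mef2a* (8.87 ± 0.68), *Gata6* (6.74 ± 1.41), *Tbx20* (5.67 ± 0.11), *Tbx5* (5.26 ± 0.76), *Mef2c* (2.66 ± 0.20) and *Tbx2* (2.25 ± 0.34). Neighbours whose means differ by less than the sum of their SDs are *Nkx2-5* and *Hand2*, *Gata6* and *Tbx20*, *Tbx20* and *Tbx5*, and *Mef2c* and *Tbx2*. In female controls *Hand2* (35.0 ± 8.23) and *Nkx2-5* (27.7 ± 3.09, SD, n = 4 each) exchanged places within their spread, as did *Tbx2* (2.33) and *Mef2c* (2.23). Taking the length of the longest transcript instead moved *Mef2a* to 23.3 in males and *Mef2c* to 6.37, so the middle of the order rests on the gene model.

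The scale chosen for the libraries bears on every one of these falls. The deposited CPM include a normalisation factor for each library, and with the reads divided by the library's total alone (plain scaling) the median log2 fold change of all genes was higher by 0.31, 0.23 and 0.17 in the male weeks and by 0.31, 0.31 and 0.35 in the female weeks. The share of lower genes among all that passed was 43.6%, 38.0% and 40.1% in males and 46.3%, 46.3% and 49.2% in females as deposited, and 9.16%, 9.25% and 14.2% and 7.69%, 7.81% and 11.1% under plain scaling. On that scale 5, 4 and 5 members had a value below 0 in males and 1, 3 and 1 in females, and only *Tbx2* in females at 3 weeks fell (-0.37, adjusted p = 0.0334, limma), while *Hand2* rose in males at 1 and 3 weeks (0.58 and 0.79, adjusted p = 0.0446 and 0.014), *Mef2c* rose in females at each week (0.47, 0.64 and 0.57), *Tbx20* rose at 1 and 6 weeks (0.67 and 0.47), and *Mef2a* at 1 week (0.38). Set against the median of all genes, 9, 8 and 9 members in males and 6, 8 and 7 in females lay below it under plain scaling, against 9, 8 and 9 and 7, 9 and 8 as deposited. *Tbx2* was below control in all 6 comparisons under both scales (-0.12, -0.32 and -0.50 in males and -0.29, -0.37 and -0.31 in females under plain scaling).

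**Figure D4:**
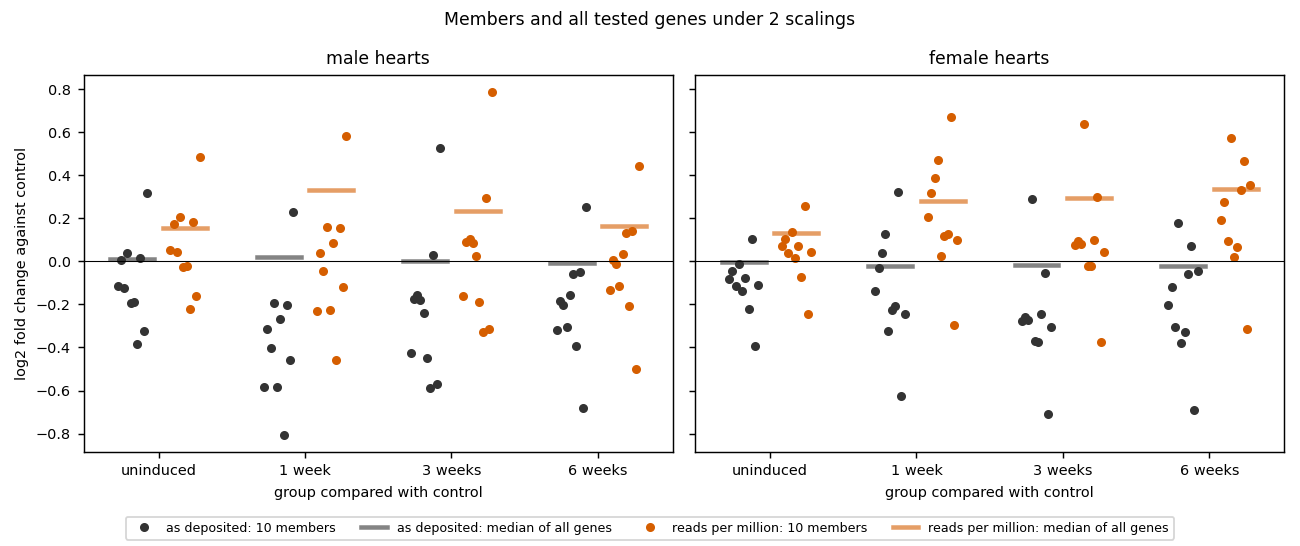
Log2 fold change against control (y axis) of the 10 members (points) and the median of all tested genes (bars) in each comparison (x axis), as deposited (grey) and under plain scaling (orange). The bars move from near 0 up to 0.33 in males and females, and the lowest points stay about as far below their bar.

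The proteins that work with these factors include coactivators, repressors and chromatin proteins, and 22 of them were listed. In males 2 rose and 10 fell at 1 week, 2 and 5 at 3 weeks, and 3 and 5 at 6 weeks. In females the counts were 3 and 6, 2 and 9, and 3 and 10. For these and the lists that follow, 33.5%, 21.3% and 27.1% of all genes passed in males and 28.4%, 31.3% and 42.7% in females. Genes that passed and were lower made up 14.6%, 8.1% and 10.9% of all in males and 13.1%, 14.5% and 21% in females. Under plain scaling 41.7%, 25.2% and 24.8% of all genes passed in males and 44.7%, 45.5% and 55.4% in females. *Myocd*, the coactivator of SRF, fell at each week in both sexes (log2 fold change -1.44, -1.16 and -1.18 in males and -0.70, -0.85 and -0.84 in females), and so did *Hopx*, a homeodomain protein without DNA binding (-1.03, -1.12 and -1.19, and -0.84, -1.02 and -1.27). *Ankrd1*, which codes for a cardiac ankyrin repeat protein, rose by 2.38, 1.89 and 1.72 on the log2 scale in males and 2.46, 2.40 and 2.82 in females. *Nfatc4*, a factor that calcineurin activates, rose as well (0.82 in males and 1.02 in females at 6 weeks). *Hdac4*, a class IIa deacetylase that represses MEF2 proteins, fell in females at 6 weeks (-1.12) and was at -0.31 in males (adjusted p = 0.353, limma). *Smyd1*, a histone methyltransferase of striated muscle, fell at 6 weeks in both sexes (-0.71 and -0.53).

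The median log2 fold change of the partners was -0.32, -0.25 and -0.20 in males and -0.17, -0.20 and -0.32 in females, beside medians of all genes from -0.02 to 0.02. Under plain scaling these medians turned to 0.03, 0.01 and -0.01 in males and 0.17, 0.13 and 0.04 in females, with 3 higher and 2 or 3 lower in males and 7, 4 and 8 higher and 2 lower in females. On that scale the 6-week values were -0.99 and -0.45 for *Myocd* (adjusted p = 0.139 in females), -1.002 and -0.87 for *Hopx*, 1.91 and 3.22 for *Ankrd1*, 1.00 and 1.39 for *Nfatc4*, -0.73 for *Hdac4* in females, and -0.52 and -0.13 for *Smyd1* (adjusted p = 0.39 in females, limma). Without male 6-week replicate 4 the male counts at 6 weeks were 3 and 7, with *Hdac4* at -0.64 (adjusted p = 0.0286). Without the 5 female libraries low in nuclear RNAs the female counts were 3 and 5, 2 and 9, and 2 and 4, and at 6 weeks, with 1 library left, *Myocd* (-0.37, adjusted p = 0.585) and *Smyd1* (-0.53, adjusted p = 0.0687, limma) did not pass.

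Other developmental factors of the heart were tested too: of 18 tested in males and 19 in females, 1 rose and 2 fell, 0 and 2, and 2 and 2 in males, and 2 and 2, 3 and 3, and 2 and 2 in females. *Casz1*, a zinc finger factor, fell at each week in both sexes (-0.43 and -0.80 at 6 weeks). *Tbx18*, a T-box factor of epicardium and mural cells, rose at 6 weeks in both (0.54 and 0.83), and *Tcf21*, which is on the fibroblast marker list as well, rose in males (0.58). *Prox1* fell in males (-0.52), while in females *Hey1*, a Notch target, fell (-0.54) at 6 weeks. *Gata5* was at 0 in every female control and at 0.663 ± 0.659 CPM (SD, n = 4) in females at 6 weeks, which gives no fold. It met the filter on low values only through libraries outside the controls. Its pass at 6 weeks (adjusted p = 0.0171, limma), counted above as a rise, is therefore no support for one. *Mef2b*, *Hand1* and *Isl1* were not analysed here in either sex, and *Gata5* was not analysed here in males. Under plain scaling 6, 2 and 2 rose in males and 9, 8 and 13 in females, and *Casz1* (-0.24, adjusted p = 0.237) and *Prox1* (-0.33, adjusted p = 0.211) in males and *Hey1* in females (-0.16, adjusted p = 0.474, limma) no longer passed at 6 weeks. Many genes rose on that scale: 6410, 3876 and 3606 of 16931 in males and 7001, 7108 and 8356 of 16956 in females. Without male 6-week replicate 4 the male 6-week counts were 0 and 2, and *Tbx18* (0.51, adjusted p = 0.0903), *Tcf21* (0.33, adjusted p = 0.179) and *Prox1* (-0.42, adjusted p = 0.0741, limma) did not pass. Without the 5 female libraries low in nuclear RNAs the female counts were 2 and 3, 5 and 3, and 1 and 1 of 18 tested, and *Hey1* did not pass at 6 weeks (-0.29, adjusted p = 0.46, limma).

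Of 24 genes known as targets of these factors, 3 rose and 7 fell, 1 and 4, and 0 and 6 in males, and 4 and 6, 2 and 8, and 4 and 7 in females. The median was -0.24, -0.19 and -0.27 in males and -0.23, -0.27 and -0.33 in females. At 6 weeks *Ryr2*, the calcium release channel, was at -0.90 in males and -0.63 in females, *Hrc*, a calcium-binding protein of the sarcoplasmic reticulum, at -1.04 and -0.42, *Ckm*, muscle creatine kinase, at -0.68 and -1.01, and *Adora1*, the adenosine A1 receptor, at -0.97 and -1.12, and all passed. *Gja1*, the gene of connexin 43, rose in females (0.63) and was at 0.22 in males (adjusted p = 0.416, limma), and *Myl2*, the ventricular myosin light chain, fell in females (-0.58). The target list shares 8 genes with the cardiomyocyte markers, and *Nppa* with the atrial markers. Under plain scaling its counts turned towards rises (2 rose and 3 fell in males and 6 and 2 in females at 6 weeks), and in females *Ryr2* (-0.23, adjusted p = 0.206), *Hrc* (-0.02, adjusted p = 0.9) and *Myl2* (-0.18, adjusted p = 0.253, limma) did not pass. Without male 6-week replicate 4 the male 6-week counts were 1 and 4. Without the 5 female libraries low in nuclear RNAs the female counts were 4 and 6, 2 and 8, and 0 and 3, and at 6 weeks *Ryr2* (-0.60, adjusted p = 0.0973), *Hrc* (-0.55, adjusted p = 0.127), *Gja1* (0.72, adjusted p = 0.0564) and *Myl2* (-0.45, adjusted p = 0.119, limma) did not pass.

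Marker lists of the cell types also differed between induced and control hearts. At 1 week in males, where 5 members fell, the summed cardiomyocyte markers were from 36316 to 58497 CPM, against 55844 to 66855 in controls, with 1 of 10 higher and 3 lower. In the same comparison 7 of 8 fibroblast markers and 7 of 8 macrophage markers were higher (sums from 3328 to 4483 and from 484 to 625 CPM), and 4 of 8 endothelial markers were lower (683 to 804 CPM). In females at 1 week 3 of 10 cardiomyocyte markers and 6 of 8 endothelial markers were lower, and 6 of 8 fibroblast and 8 of 8 macrophage markers higher. At 6 weeks the summed cardiomyocyte markers were from 55844 to 66855 CPM in male controls and from 35581 to 46431 in induced males, and from 40422 to 58832 and from 34834 to 45088 in females. Of these 10 markers 0 rose and 2 fell in males at 6 weeks, and 0 and 5 in females. The 8 fibroblast markers summed to 1368 to 1619 CPM in male controls and 2988 to 3435 at 6 weeks, with 6 higher and 1 lower, and to 1840 to 2123 and 3586 to 6224 in females, again with 6 and 1. Macrophage markers went from 133 to 242 CPM in male controls to 497 to 776 at 6 weeks, with 7 of 8 higher, and in females from 133 to 165 to 639 to 744, with 8 of 8 higher. The endothelial sum was from 1041 to 1182 CPM and from 669 to 882 in the same male groups and from 966 to 1100 and from 624 to 832 in females, with 4 and 5 of 8 lower, and that of pericytes and smooth muscle went from 894 to 1090 down to 525 to 593 and from 854 to 1032 down to 602 to 796, with 2 of 8 lower in each sex. The atrial markers rose in 1 of 3 and 2 of 4 listed genes, and the mesothelial in 0 and 5 of 6. Without male 6-week replicate 4 the cardiomyocyte, fibroblast and macrophage counts at 6 weeks were as before, 3 endothelial markers were lower and 2 mesothelial markers higher. Without the 5 female libraries low in nuclear RNAs, 0 cardiomyocyte and 4 endothelial markers were lower at 6 weeks, and 6 fibroblast, 8 macrophage and 1 mesothelial were higher. No listed marker was at 0 in every library of a group. Under plain scaling the fibroblast and macrophage counts were at least as high, while 1 endothelial marker was lower at 6 weeks in each sex, and 1 cardiomyocyte marker. In whole hearts, fewer cells of a type and less RNA per cell cannot be told apart, and the part of these shifts in the values of the 10 factors was not tested.

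The measurements can miss small differences. In data simulated from these means and library sizes for the 6-week comparison, 87% of genes changed by a fold of 2 were recovered in males and 92% in females, but 1% and 11% of those changed by 1.3. Many fitted falls of the members are of that smaller size, so a member that did not pass is not shown to be at the control level. The simulation changed only 100 genes at each fold, while 27.1% and 42.7% of all genes passed in the data. The adjustment is stricter where few genes change, so the recovered shares may be too low for the real comparison.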

How the data were processed

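PolyA RNA of 40 mouse hearts was sequenced, each as its own library. According to the study's methods and the submitters' processing notes, reads were aligned to GRCm39 with STAR 2.7.10a, counted on Ensembl 106 genes with featureCounts (Rsubread 2.10.4) and analysed with edgeR 3.38.1. The authors deposited signal values in CPM, 1 table per sex, after genes with few reads had been dropped. Divided by the size of 1 read in their library, 100% of these values came within 0.001 of a whole number, so the reads behind them could be recovered. Depth, as reads on the listed genes, was 16663513 to 65333832 in male libraries and 19147947 to 30929192 in female ones. No column went unmapped.

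Groups came from the labels. The 2 libraries whose labels conflict entered no comparison. Values were tested with limma 3.58.1 in R 4.3.3 (mean-variance trend, log2(CPM + 0.5), genes with at least 0.5 CPM in at least 3 libraries, all groups of a sex in 1 fit, no covariates), with Benjamini-Hochberg adjustment over all tested genes. Fold changes on this scale slightly understate those of weakly expressed genes. A self-test on simulated data ran first. Alternatives included edgeR 4.0.16 and DESeq2 1.42.0 on the recovered reads, other pseudocounts, filters and scalings, and leaving out each library. Replicates come from different mice, and none differed by counting noise alone (lowest chi-square per gene 7.04 over 54 pairs of replicates). Gene models and promoter sequence are from GENCODE M39 on GRCm39, the same build in another release.

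The 10 members and the lists of partners, targets, other factors and markers were chosen with earlier results of these data known. All members are named. List genes named are up to 4 with the smallest adjusted p at 6 weeks in each sex. The nuclear RNA and antisense lists, the plain scaling and the fits of members and lists without 5 female libraries, or of lists without male 6-week replicate 4, were added after the data were seen. Some genes that these rules name are not reported here. No protein sequences were used here.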

Additional observations from a re-analysis of the deposited data

Results flagged for a closer look

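Within groups of 4 libraries, 4 of the 80 tested sets of values had 1 library far from the others (gap above 0.829 of the range), and chance alone flags about 1 group in 20. *Gata4* in females at 1 week was lowest in replicate 1 (59.2 CPM, others from 68.0043 to 69.1, gap 0.8875 of the range). *Mef2a* in males at 3 weeks was highest in replicate 4 (136 CPM, others from 118 to 120.4, gap 0.8467). *Tbx5* in uninduced females was lowest in replicate 3 (9.21 CPM, others from 16.5 to 16.8, gap 0.9552), which was also the uninduced heart with the most *Il11*. *Tbx5* in females at 1 week was highest in replicate 4 (16.3 CPM, others from 13.7 to 14.02, gap 0.879).

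The sexes pointed in opposite directions for *Tbx20* at 1 week (log2 fold change -0.2012 in males and 0.3226 in females) and for *Hand2* at 3 weeks (0.5244 in males and -0.3062 in females). These differences between the sexes were not tested, because the tables were scaled separately.

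One of the 2 male libraries with conflicting labels, whose table column names 6 weeks, had *Tbx20* at 88.0367 CPM, above the highest male control (69.3 CPM). In that library *Gata4* (68.6 CPM), *Mef2d* (137), *Nkx2-5* (34.1), *Tbx5* (10.9) and *Tbx2* (5.58) were below the lowest male control, and *Il11* was at 511 CPM. It entered no comparison.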

How the results depend on the processing

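No call changed under pseudocounts of 0.1 and 2, without the filter, or under median-of-ratios scaling, and a filter of 1 CPM in 4 libraries added 1 call. On recovered reads, edgeR called 5672, 3587 and 4666 genes in males and 4747, 5224 and 7068 in females at 1, 3 and 6 weeks, with *Tbx20* in females at 1 week missing the threshold (adjusted p = 0.0502), and DESeq2 added *Tbx5* in males and *Mef2c* in females at 3 weeks. Under plain scaling the members called were 1, 1 and 0 in males, and 1 in females at 6 weeks against uninduced, and *Mef2d* reversed to 0.0245 and 0.0196 in females at 1 and 6 weeks. Of all genes 41.7%, 25.2% and 24.8% were called in those male comparisons and 31.0% in that female one. A minimum log2 fold change of 1 left 0 members in each week of both sexes. The 2 conflicting male libraries were also placed by titles and tags, which sets the library with 511 CPM of *Il11* among the controls. The counts were then 3, 0 and 0 (0 genes of all called at 3 and 6 weeks). Placed by descriptions they were 5, 3 and 1. The other shares of all genes under these placements are not given here. With only the groups compared in the fit the counts were 5 in males at 3 weeks, and 6 and 4 in females at 3 and 6 weeks. Of all genes 24.2%, 39.4% and 41% were called there. On all groups the count was 2 in each. Without the 5 female libraries low in nuclear RNAs the female counts were 1 at 1 week and 4 at 3 weeks (29% and 37.8% of all genes called). At 6 weeks only 1 library was left. At 3 weeks the hearts compared were the same, and the spread estimated from all groups changed. The cause of the other changes in count was not tested.

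Leaving out 1 library at a time gave 3 to 6 members in males at 1 week, 0 to 2 at 3 weeks and 0 to 5 at 6 weeks, 1 to 2 in females at 1 week, 2 to 3 at 3 and at 6 weeks, and 0 to 3 in females at 6 weeks against uninduced. Over all members and contrasts with control these fits gave 551 unchanged calls, 13 gained and 26 lost. The male 3-week count was 0 without 3-week replicate 3 or control 3 or 4. The replicate numbers do not pair the mice (mean correlation of same-numbered residuals 0.013 in males and 0.025 in females). With a replicate block the counts were 4, 3 and 1 in males and 2, 3 and 2 in females. There *Tbx2* in males at 1 week had adjusted p = 0.058 and *Tbx20* in females adjusted p = 0.0632 (limma). The share of all genes that passed is not given for the fits with a block or without 1 library, so their counts lack a background. The fit without male 6-week replicate 4 is the exception (26.2%). In the simulation, where few genes changed, changes of 1.3-fold were mostly not detected. Taking the longest transcript for length moved some ranks in the level order by 1 or 2 places.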

Other observations

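Across the libraries of each sex, the genes whose values ran most like those of a member, by the lower of the male and female Pearson r among 14196 genes, are given as a description. The points share libraries, groups and depth, and 18 male and 20 female libraries were used. *Nkx2-5* ran most like *Kcng2* (r = 0.934 in males and 0.898 in females), a potassium channel subunit, and *Mtfr1l* (0.888 and 0.893). *Mef2a* ran most like *Ghr*, the growth hormone receptor (0.904 and 0.892), and *Ncoa2*, a nuclear receptor coactivator (0.898 and 0.872). *Mef2d* ran most like *Atg2a*, an autophagy gene (0.881 and 0.888), and *Usp19*, a deubiquitinase (0.891 and 0.876). For *Tbx2* the genes were *Pdzd7* (0.837 and 0.823) and *Plxdc1* (0.873 and 0.80), for *Gata6* *Cmtm4* (0.694 and 0.817) and *Agpat3* (0.814 and 0.690), for *Tbx20* *Lysmd3* (0.753 and 0.729) and *Cbll1* (0.722 and 0.720), for *Tbx5* *Sbk2* (0.723 and 0.790) and *Wnt5a* (0.676 and 0.666), and for *Mef2c* *Cdc14a* (0.733 and 0.761) and *Meox2* (0.682 and 0.758). Among the genes close to *Gata4* was *Srrm4* (0.825 and 0.817). *Hand2* had no close companion by this measure, with *Maff* at 0.511 and 0.616.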
